A study of Mus musculus with 28 samples.

Results

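The IAP, ETn and MMERVK repeats are mouse endogenous retroviruses whose fragments were counted among the small RNAs of sperm. They were taken as all sense and antisense transposable element rows whose repeat name starts with IAP, ETn, MMETn or MMERVK. This gave 34 names and 17183 numbered copies, of 1121 repeat names and 1125659 copies with a row in any of the 3 count tables. By prefix, 25 names were IAP, 4 were ETn or MMETn and 5 were MMERVK, and the files place all 34 in the ERVK family. The ETn long terminal repeats carry another prefix in this annotation and lie outside the rule, so the ETn values are those of internal regions alone.

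Endogenous retroviruses of the ERVK family are remnants of germline infections. A complete copy has an internal region with gag and pol genes between a pair of long terminal repeats (LTRs), which carry the promoter. IAP (intracisternal A particle) elements are among the most active mouse retroviruses, and MMERVK10C is a related ERVK element. ETn elements in the strict sense are non-autonomous and have lost the coding genes. Whether each name grouped as ETn here, the ETnERV names among them, lacks these genes was not examined. In the male germline such elements are silenced by DNA methylation and by piRNAs, small RNAs bound to PIWI proteins, and an RNA antisense to a retrovirus can pair with its transcript.

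The study compared sperm small RNA of mice across alcohol exposures and Nrf2 genotypes. Nrf2, encoded by Nfe2l2, is a transcription factor of the antioxidant response. The WT set held 4 control libraries without alcohol, 4 low dose, 2 medium dose and 2 high dose alcohol libraries. The count column of medium dose 1 carries the letter of the high dose columns, so its dose is as the sample label gives it and is in doubt, and the 4 are tested together. The Nrf2 -/- set held 4 controls without alcohol and 4 ethanol libraries, so both of its groups lack Nrf2. The third set held 4 Nrf2 Flox libraries, carrying floxed Nrf2 without Cre, and 4 Nrf2 LKO (liver KO) libraries with floxed Nrf2 and Albumin-Cre, a Cre driven by the promoter of the hepatocyte gene Albumin, so the deletion is targeted to liver and not to sperm. The sources used here give no amount of alcohol, strain or age, and do not say whether replicates came from separate animals, so p-values measure only the spread between these samples. In bulk RNA, fewer cells of a type and less RNA per cell cannot be told apart.

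Total counts ran from 1993933 to 11119711 a library, and transposable elements made up 3.46% to 11.6% of them. WT control 1 stood apart, with 75.8% of its counts in structural RNA and 3.91% in repeats. The sperm and spermatid markers were detected in every group (13 of 13 with counts), with a summed level of 219 to 1124 CPM (CPM, counts scaled to a common library total, here of all counts). Nfe2l2 exon counts were 0 to 20 in the Nrf2-/- libraries and 4 to 47 in WT, but where the deletion lies was not given, so these counts check nothing. The tables also differed in what they list: 36.5% of the member rows in the WT table and 42.6% in the Nrf2-/- table were 0 in every library, against 0% in the flox and liver KO table. Between the 3 tables, the WT, Nrf2-/- and floxed backgrounds cannot be told apart from the table or from the sequencing lane that the library names give, which is 1 lane for each table, and levels are therefore compared only within a table.

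Counts were dominated by internal regions. The 18 internal region names held 90.0% of the 196372 member counts and the 16 LTR names 9.95%, and the 10 most counted names held 90.2%. The prefix rule takes in no ETn LTR and only 1 MMERVK LTR, MMERVK10D3_LTR with 92 counts, so outside IAP this split depends on the rule. IAP names held 69.8%, MMERVK names 22.8% and ETn names 7.38%. The leading internal regions were IAPLTR3-int with 47361 counts over all libraries, IAPEz-int with 40475, MMERVK10C-int with 30209 and IAPEY3-int with 22769. These totals are per name, not per copy or per length, so they do not order the names by expression level. IAPLTR2_Mm was the most counted LTR, with 9235 counts, and ETnERV-int the most counted ETn name, with 7003.

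Strand separated the family sums. In every one of the 28 libraries the summed IAP names and the summed MMERVK names gave more antisense than sense counts, and the summed ETn names gave more sense than antisense, although not every single name followed its family. The plot of sense and antisense counts by name shows this as red points right of blue points for IAPLTR3-int, MMERVK10C-int, IAPEY3-int, IAPLTR2_Mm and IAPLTR3, and the reverse for ETnERV-int and MMETn-int. Of the 25 IAP names, 8 were antisense in every table and 4 were sense in every table. Among the 5 MMERVK names these counts were 2 and 1, and among the 4 ETn names 1 and 2. The strand of a family sum is therefore not a trait of each of its names.

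**Figure D1:**
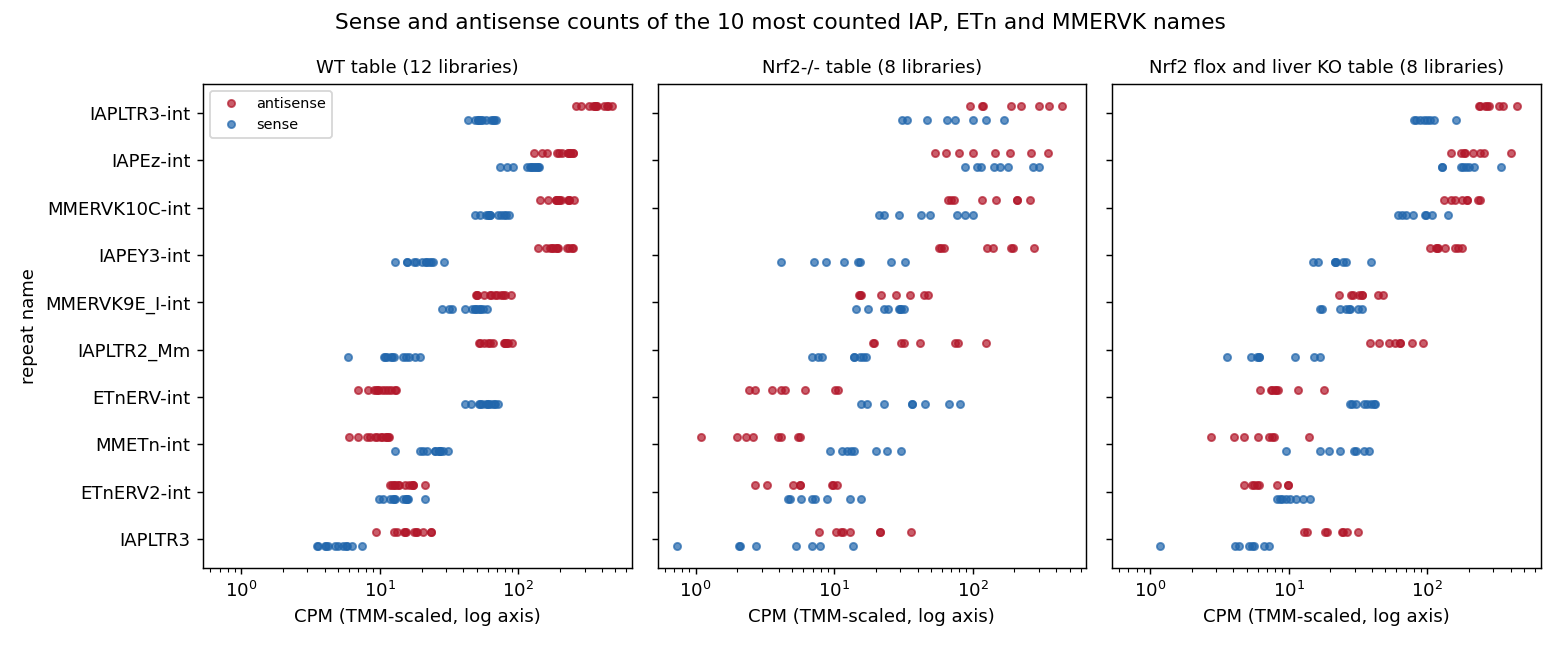
CPM (log axis, scaled by TMM over features other than miRNA) of the 10 most counted names, antisense in red and sense in blue, 1 point a library, with 1 panel for each count table. The antisense points lie to the right for IAPLTR3-int, MMERVK10C-int, IAPEY3-int, IAPLTR2_Mm and IAPLTR3 and to the left for ETnERV-int and MMETn-int.

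IAPLTR3-int, an IAP internal region, was antisense over sense in 28 of 28 libraries. In CPM scaled by TMM over all features other than miRNA, its antisense level in the WT controls was 285, 413, 325 and 434, against a sense level of 58.2, 55.1, 50.9 and 69.2. At low dose the antisense level was 362, 476, 370 and 346 and the sense level 51.4, 66.5, 51.8 and 48.3. The 2 strands did not overlap in either group, while the 2 groups overlapped on each strand. Its antisense to sense ratio was 6.58 over the WT libraries, 2.87 over the Nrf2-/- libraries and 2.89 over flox and liver KO.

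IAPEY3-int, another IAP internal region, had the strongest antisense excess of the 10 names in the WT and Nrf2-/- tables. Its antisense level in the WT controls was 157, 233, 170 and 242 CPM and its sense level 21.5, 22.7, 20.3 and 29.3 CPM. In the Nrf2-/- controls its antisense level was 62.5, 59.1, 196 and 278 CPM, which splits controls 1 and 2 from controls 3 and 4. Its ratio was 9.80 over the WT libraries, 9.13 over the Nrf2-/- ones and 5.89 over flox and liver KO, and antisense exceeded sense in 28 of 28 libraries.

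IAPEz-int, the internal region of a young IAP subfamily, did not show a fixed strand. Its antisense level was above its sense level in 21 libraries and below it in 7. The WT controls had 189, 246, 160 and 235 CPM antisense and 120, 135, 73.5 and 131 CPM sense. The Nrf2-/- controls had 53.4, 64.6, 185 and 262 CPM antisense and 115, 108, 180 and 300 CPM sense. Its ratio was therefore 1.72 over the WT libraries, 0.859 over the Nrf2-/- ones and 1.16 over flox and liver KO.

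MMERVK10C-int gave a WT control antisense level of 164, 232, 188 and 232 CPM and a sense level of 62.3, 81.4, 48.7 and 75.4 CPM. Antisense exceeded sense in 28 of 28 libraries, with ratios of 3.00, 2.69 and 2.02 in the 3 tables. The second MMERVK internal region, MMERVK9E_I-int, was closer to balance, at 1.44, 1.08 and 1.34, with antisense above sense in 23 libraries and below it in 4. Among LTRs, IAPLTR2_Mm was antisense in 28 of 28 libraries (ratios 5.18, 4.01 and 6.99), as was IAPLTR3 (3.46, 3.34 and 4.12).

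The most counted ETn internal regions, ETnERV-int and MMETn-int, ran the other way. ETnERV-int had a WT control sense level of 45.1, 64.0, 52.3 and 60.1 CPM and an antisense level of 9.77, 9.06, 13.1 and 9.35 CPM. Sense exceeded antisense in 28 of 28 libraries, and its antisense to sense ratio was 0.177 over the WT libraries, 0.143 over the Nrf2-/- ones and 0.274 over flox and liver KO. MMETn-int was also sense in 28 of 28 libraries, with ratios of 0.374, 0.206 and 0.266. ETnERV2-int was balanced, with antisense above sense in 12 libraries and below it in 16. Summed over the 4 ETn names, the ratio was 0.221 to 0.509 in the 28 libraries, below 1 in each, although ETnERV2-int had no fixed side. ETnERV3-int, the fourth ETn name with 907 counts, went against the sum, with ratios of 1.05, 1.14 and 1.80 and antisense above sense in 16 libraries and below it in 11.

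The other 24 names held 9.79% of the counts. Of them 5 were antisense in all 3 tables and 5 were sense in all 3, and IAPEY3_LTR was antisense in 28 of 28 libraries on 877 counts. IAPEy-int was the most counted sense-biased IAP name, with sense above antisense in 25 libraries and ratios of 0.586, 0.374 and 0.679. Over all 34 names, 11 were antisense in every table, 7 were sense in every table and the rest did not keep one side in all 3.

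Summed over the members, the antisense to sense ratio ranged from 1.40 to 2.80, against 0.734 to 1.33 for all other repeats in the same libraries. It was the higher of the pair in 28 of 28 libraries, by 0.82 ± 0.21 on the log2 scale (SD, n = 28). A paired sign-flip permutation test over libraries, two-sided with 100000 resamples, gave p = 1e-05, the smallest it can give. LINE-1 elements had ratios of 0.452 to 0.976, and members were higher by 1.39 in 28 of 28 libraries. A single copy, however, held 70.1% of the LINE-1 sense counts in WT, 57.3% in Nrf2-/- and 46.2% in flox and liver KO sperm. For all other repeats, which include LINE-1, the leading sense copy held 18.6%, 10.6% and 7.66% in the same order. Such copies lower the reference ratios, and the differences per library without them were not computed. Pooled over the WT libraries, LINE-1 elements had 815144 antisense and 984656 sense counts, and members 91938 and 36760. Without its leading sense copy, the pooled WT LINE-1 ratio is above that of the members, which kept all of their copies. In Nrf2-/- and in flox and liver KO sperm it stays below. Whether members exceed LINE-1 elements in single libraries, or other repeats by as much, without these copies is not known. Against the RLTR repeats the members were higher by 0.78 in 26 of 28 libraries, the exceptions being 2 Nrf2-/- controls. This difference is between sums. The median over the 34 names, with 1 count added to each strand, exceeded the summed ratio of the other repeats by 0.03 on the log2 scale. The same permutation test gave p = 0.598 for it. No median over names was computed for the other repeats, so typical names of the sets were not compared.

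**Figure D2:**
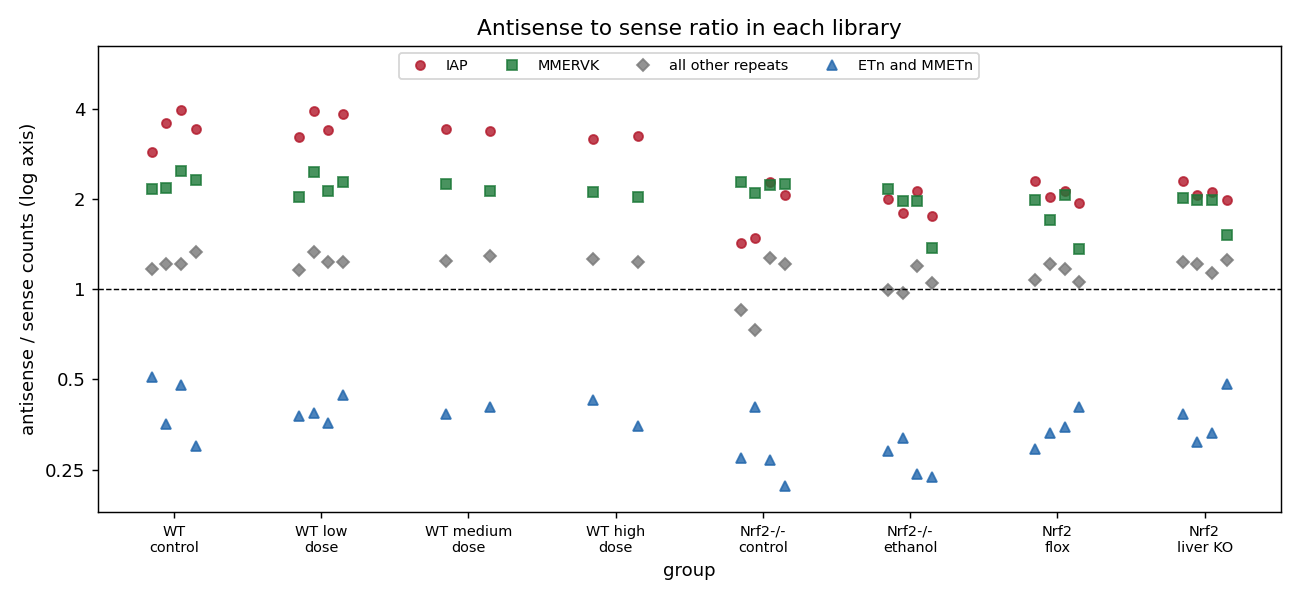
Antisense to sense count ratio (log axis) of the summed IAP, MMERVK and ETn names and of all other repeats in each of the 28 libraries, by group, 1 symbol a library. IAP and MMERVK symbols lie above 1 in all 28 libraries and ETn symbols below 1 in all 28.

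The IAP ratios were close between the groups of a table given here, and no family ratio was tested between groups. IAP ratios were 3.47 ± 0.45 in the WT controls and 3.60 ± 0.34 at low dose (SD, n = 4 each), 1.81 ± 0.42 in the Nrf2-/- controls and 1.92 ± 0.18 with ethanol, and 2.10 ± 0.15 in flox and 2.12 ± 0.13 in liver KO. MMERVK ratios were 2.28 ± 0.15, 2.23 ± 0.19, 2.21 ± 0.082, 1.87 ± 0.34, 1.78 ± 0.32 and 1.88 ± 0.24 in the same order. By library the MMERVK ratios were 2.28, 2.09, 2.23 and 2.24 in the Nrf2-/- controls and 2.16, 1.97, 1.97 and 1.37 with ethanol. The Nrf2-/- controls fell into pairs: controls 1 and 2 had member ratios of 1.40 and 1.45, and controls 3 and 4 had 1.91 and 1.83. Controls 1 and 2 also had the lowest ratios of all other repeats, 0.856 and 0.734, against 1.27 and 1.22, and fewer counts in piRNA clusters, 10.8% and 9.23% of the library against 24.7% and 25.7%. The part of piRNA content in the ratio was not tested.

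Most of the antisense excess came from 5 copies. A copy is 1 numbered entry of a repeat name, without a position that could be used here. Internal regions and LTRs have separate names, so 1 insertion can have more than 1 entry, and copies are not counts of insertions. How reads matching several copies were assigned was not given in the sources used here. The 5 copies with the most counts over all libraries were all antisense: IAPLTR3-int_copy105, IAPEY3-int_copy231, MMERVK10C-int_copy316, IAPLTR3-int_copy150 and IAPLTR2_Mm_copy518. Together they held 43.9% to 61.1% of the members' antisense counts in each WT and Nrf2-/- library and 26.2% to 28.5% in each flox and liver KO library.

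IAPLTR3-int_copy105 alone held 18362 antisense counts in the WT table, 67.7% of the antisense counts of its name and 19.97% of those of all members. IAPEY3-int_copy231 held 83.4% of its name's antisense counts in WT, 83.5% in Nrf2-/- and 29.7% in flox and liver KO sperm. MMERVK10C-int_copy316 held 61.0%, 62.7% and 21.3% in the same order, and IAPLTR2_Mm_copy518 held 85.0%, 58.7% and 26.7%. IAPLTR3-int_copy150 went the other way, with 21.1%, 21.3% and 43.6%, and was the leading copy of its name in the third table. Of the 5 copies, 4 thus held a smaller share of their name in the flox and liver KO table than in the WT table, and 1 held a larger share. The tables differ in background, lane and the copies they list, so this is a description and not a comparison of genotypes.

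Sense counts were spread over more copies. To reach 50% of the members' counts in WT sperm took 236 copies on the sense strand and 5 on the antisense strand. For ETnERV-int, a sense-biased name, the leading copy held 9.46% of its WT sense counts. Sense leaders were larger in other names: 1 copy held 33.5% of the WT sense counts of MMETn-int (29.1% in Nrf2-/-) and 1 held 31.2% of those of MMERVK9E_I-int. IAPEz-int was spread on both strands, with leading copies of 3.37% (sense) and 7.65% (antisense) in the WT table. Among the 10 most counted names, the 5 that were antisense in 28 of 28 libraries each had an antisense copy with over 50% of the name's WT antisense counts, IAPLTR3 among them with 52.3%. The other 5 names had none, and MMERVK9E_I-int came closest with 28.05%.

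Without the 5 copies the members' ratio was 0.604 to 1.49, above 1 in 19 of 28 libraries. It was then below that of other repeats by 0.10 on average on the log2 scale (p = 0.062, the same permutation test), higher in 13 libraries and lower in 15. All 8 flox and liver KO libraries remained higher. Without the most counted copy of each name and strand the difference was 0.12 (permutation p = 0.056), higher in 17 libraries and lower in 11. All of these copies were chosen for their counts in the same libraries, while the other repeats kept all of their copies. Removing the 5 antisense copies could only lower the members' ratio. The p-values without leading copies therefore do not show whether members differ from other repeats trimmed alike, which was not computed.

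**Figure D3:**
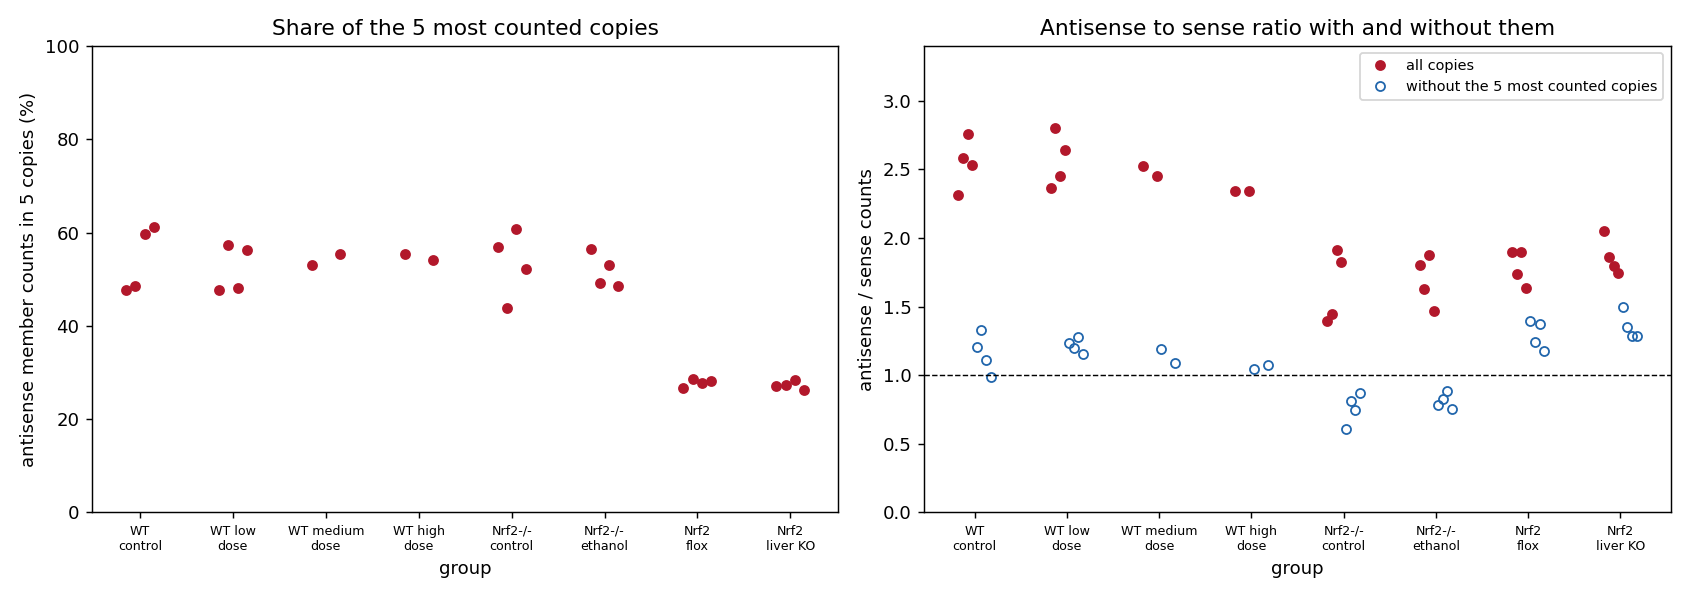
Left, percent of the members' antisense counts held by the 5 most counted copies in each library, by group. Right, the members' antisense to sense ratio with all copies (filled) and without those 5 copies (open), where the open points lie between 0.604 and 1.49.

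Single libraries departed from the pattern at single copies while their name totals did not. IAPEY3-int_copy231 held 82.8% to 93.1% of the antisense IAPEY3-int counts in 11 WT libraries but 29.9% in WT low dose 3, where the next copy, IAPEY3-int_copy863, held 12.8%. The name's antisense level in that library was 188 CPM, within the 175 to 247 CPM of the low dose group. In Nrf2-/- control 2 the same copy held 34.4%, and IAPEY3-int_copy936 held 29.1%. MMERVK10C-int_copy316 held 25.1% in WT low dose 1 and 58.0% to 69.0% in the other WT libraries, again at a name level (188 CPM) equal to that of low dose 3. IAPLTR2_Mm_copy518 held 4.41% in Nrf2-/- control 4, where IAPLTR2_Mm_copy378 held 44.5%. Counts of single copies were therefore not compared between groups.

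The share of repeat counts addressed whether alcohol or deletion of Nrf2 in liver changed the weight of the members among sperm repeats. It does not measure their amount, because it stays the same when all repeats move together. Members were 1.31% to 2.19% of repeat counts in all 28 libraries. The WT controls had shares of 1.59%, 1.51%, 1.41% and 1.52%, the low dose libraries 1.53%, 1.56%, 1.56% and 1.46%, the medium dose libraries 1.49% and 1.56%, and the high dose libraries 1.44% and 1.52%. Group means were 1.51% ± 0.073 for control and 1.53% ± 0.048 for low dose (SD, n = 4 each; exact two-sided permutation test p = 0.686). The 4 medium and high dose libraries together had 1.504% ± 0.050 (exact p = 0.886). All of these WT groups overlapped.

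Nrf2-/- controls had shares of 1.34%, 1.31%, 1.503% and 1.68%, and ethanol libraries 1.57%, 1.45%, 1.83% and 1.47%. The means were 1.46% ± 0.17 and 1.58% ± 0.17 (exact p = 0.4). The flox libraries had 1.69%, 1.87%, 1.87% and 1.81% and the liver KO libraries 1.86%, 1.72%, 1.73% and 2.19%, with means of 1.81% ± 0.083 and 1.87% ± 0.22 (exact p = 0.714). In both comparisons the groups overlapped. With 4 libraries a group, the smallest p this test can give is 0.0286, and the adjusted p was 0.886 for each of the 8 tests of share and ratio.

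**Figure D4:**
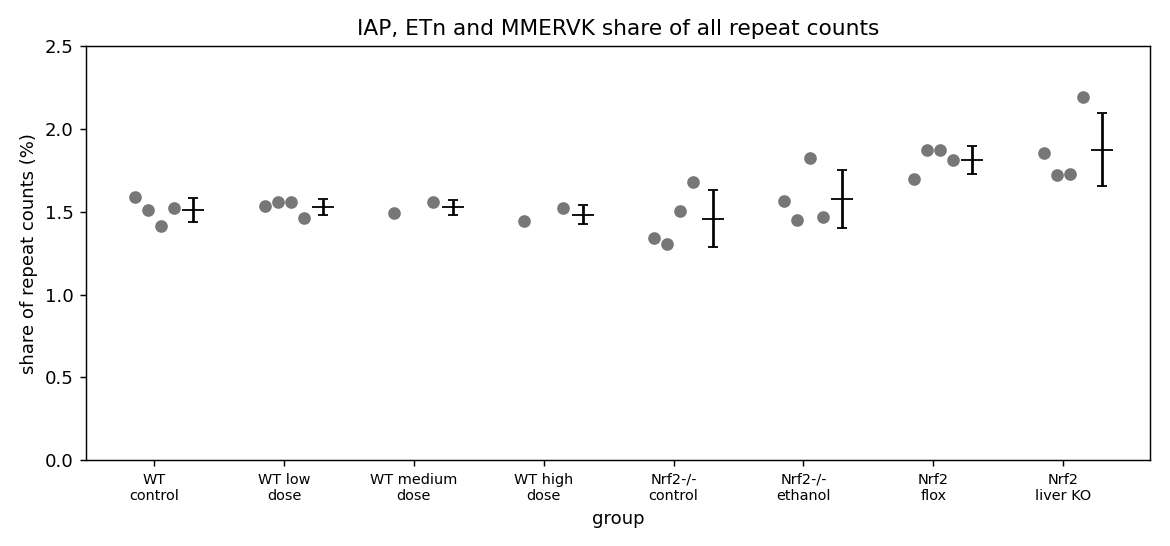
Percent of all transposable element counts that fell on the IAP, ETn and MMERVK names in each library, by group, with the group mean and SD beside the points (n = 4, or 2 for medium and high dose). Groups within a table overlap, and the 28 libraries run from 1.31% to 2.19%.

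The antisense to sense ratio did not differ beyond the spread in any comparison either. On the log2 scale the difference from control was 0.01 at low dose (exact two-sided permutation test p = 0.886), -0.07 at medium and high dose (p = 0.257) and 0.05 with ethanol in Nrf2-/- sperm (p = 0.771). Liver KO differed from flox by 0.06 (exact p = 0.486). A measure that gives each name the same weight read differently: the median over the 34 names of the log2 ratio, with 1 count added to each strand. It was 0.09 ± 0.05 in the WT controls, 0.42 ± 0.18 at low dose and 0.33 ± 0.13 at medium and high dose (SD, n = 4 each), and neither alcohol group overlapped the controls, which both comparisons share. It was 0.24 ± 0.21 in flox and 0.62 ± 0.18 in liver KO, which did not overlap, and -0.02 ± 0.05 and -0.03 ± 0.25 in the Nrf2-/- groups, which did. The low dose, the medium and high dose and the liver KO comparisons reached the smallest p of the exact test, 0.0286, and the Nrf2-/- comparison had an exact p of 1. In Nrf2-/- controls 2, 3 and 4 and ethanol 1 and 2 the median was exactly 0, and some names there had no counts. The Nrf2-/- result therefore does not show that a difference is absent without Nrf2. The median over names reads mostly the 24 names that hold 9.79% of the counts.

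Each name and strand was then tested across all features other than miRNA with edgeR's quasi-likelihood test and Benjamini-Hochberg adjustment over all features. At low dose 56 of the 68 names and strands passed the filter on low counts. The test called 0 of these 56, where 0.0613% of the 17930 features tested were called. Unadjusted p was under 0.05 for 2 of 56, against 7.47% of all features, and DESeq2 called 0. IAP-d-int antisense had the lowest p, at 8.09 ± 4.2 CPM in control and 15.3 ± 5.4 CPM at low dose (mean ± SD, n = 4 each), with a log2 fold change of 1.01 (SE 0.32) and an adjusted p of 0.318. IAP1-MM_LTR sense was the other, at 2.21 ± 1.2 CPM in control and 0.671 ± 0.092 CPM at low dose.

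MMERVK9E_I-int sense was the 1 member whose low dose and control libraries did not overlap, at 28, 46.2, 31.6 and 48.3 CPM in control and 55.6, 52.6, 50.4 and 48.5 CPM at low dose. Across all features, 3.32% were higher and 1.89% lower without overlap. Its log2 fold change was 0.42 (SE 0.24, adjusted p = 0.76 in edgeR), and the lowest low dose library and the highest control were nearly equal. The median log2 fold change of the members was 0.10, against 0.01 over all features and 0.02 over all repeats. The members' median was -0.0082 without WT control 3, 0.010 without low dose 2 and 0.22 with library totals in place of TMM, which moved the median of all features to 0.18. The red blood cell markers, whose summed level was 1.89 to 13.5 CPM in control and 34.9 to 63.8 CPM at low dose with no marker at 0, moved with this comparison, and their part was not tested.

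At medium and high dose edgeR called 0 of 56 members, where 0% of 17930 features were called. An unadjusted p under 0.05 was found for 2 members, against 3.06% of all features, and DESeq2 called 0. These were IAPLTR2a2_Mm antisense, at 3.53 ± 1.0 CPM in control and 6.26 ± 3.1 CPM in the exposed libraries (n = 4 each), and IAPLTR1_Mm sense, at 2.48 ± 0.64 and 1.58 ± 0.74 CPM. Each had an adjusted p of 0.9995 in edgeR. The median log2 fold change of the members was 0.01, with 28 above 0 and 28 below. No member was separated from control in either direction, where 1.18% of all features were higher and 0.541% lower without overlap. Epididymis epithelium markers summed to 224 to 615 CPM in control, 96.8 to 528 CPM at medium dose and 293 to 1829 CPM at high dose. Of 13 markers, 3, 6 and 4 were at 0 in the same order, and their part was not tested.

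In Nrf2-/- sperm 31 names and strands passed the filter, and edgeR called 0 of them with ethanol, where 0% of 9661 features were called. Unadjusted p was under 0.05 for 0 members, against 4.83% of all features, and DESeq2 called 0. IAPLTR2_Mm antisense shows the spread behind this: 19.1, 19.3, 74.2 and 77.8 CPM in the controls and 41.4, 32.0, 124 and 30.4 CPM with ethanol. The controls lay on both sides of 3 of the 4 ethanol libraries, and no member was without overlap, where 2.96% of all features were higher and 2.44% lower without it. The median log2 fold change was -0.18 for the members and -0.27 for all features, and that of the members was 0.20 without control 4 and -0.50 without ethanol 3. The SE of the log2 fold change of IAPLTR2_Mm antisense was 0.66 here, against 0.23 at low dose and 0.25 in liver KO, so changes of a size that the other comparisons could detect may be missed in this one. Sperm and spermatid markers summed to 219 to 1124 CPM in the controls and 270 to 358 CPM with ethanol, with no marker at 0. Epididymis epithelium markers summed to 38.6 to 1560 CPM in the controls and 184 to 430 CPM with ethanol, with 1 and 6 of 13 at 0. The part of either list was not tested.

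In the liver KO comparison 34 names and strands passed the filter. edgeR called 0 of these 34, where 0.0508% of 9837 features were called, and DESeq2 called 0. Unadjusted p was under 0.05 for 0 members, against 12.4% of all features. IAPLTR2_Mm antisense came closest, at 38.8, 59.0, 63.4 and 45.1 CPM in flox and 64.0, 77.5, 52.96 and 93.5 CPM in liver KO, with a log2 fold change of 0.48 (SE 0.25) and an adjusted p of 0.439. IAPEY4_I-int antisense was the 1 member that did not overlap, at 3.19 ± 0.34 and 5.24 ± 1.4 CPM (adjusted p = 0.587 in edgeR), where 2.85% of all features were higher and 3.88% lower without overlap. The members' median log2 fold change of 0.20 was that of all repeats, 0.20, while all features had 0.01, and it was -0.10 when library totals replaced TMM scaling, which moved the median of all features to -0.28. The epididymis epithelium markers summed to 621 to 811 CPM in flox and 158 to 499 CPM in liver KO, with 2 and 6 of 13 at 0, and their part was not tested.

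**Figure D5:**
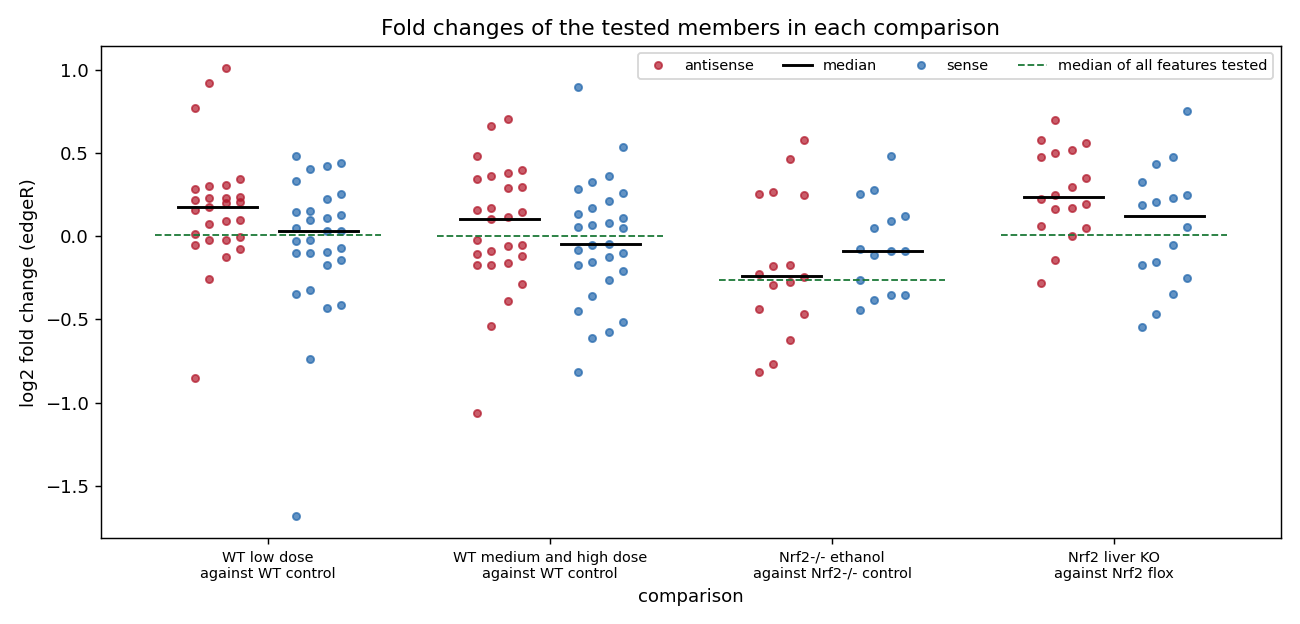
log2 fold change of each tested name and strand in the 4 comparisons, antisense in red and sense in blue, with the median of each strand (black line) and of all features tested (green dashed line). The member medians are 0.10, 0.01, -0.18 and 0.20, and edgeR's quasi-likelihood test called 0 members in every comparison.

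Genes that silence retroviruses were examined beside the repeats, as a list of 38 symbols that covers PIWI proteins and piRNA factors, DNA methyltransferases and the KAP1 and SETDB1 repressors. Exon rows were found for 36 of them. Of those that passed the filter, 26 in each WT comparison and 14 in each of the others, edgeR and DESeq2 each called 0 in every comparison, and unadjusted p was under 0.05 for 1 (Dnmt1, the maintenance DNA methyltransferase, in Nrf2-/- sperm). Dnmt1 was at 9.02 ± 2.1 CPM in control and 4.07 ± 1.7 CPM with ethanol (log2 fold change -1.12, SE 0.44, adjusted p = 0.767). The summed exon level of the list was 145 to 163 CPM in the Nrf2-/- controls and 89.5 to 104 CPM with ethanol, which did not overlap. In flox it was 181 to 219 CPM against 149 to 178 CPM in liver KO, which did not overlap either. These sums give most weight to the genes with the most counts. Under TMM, Cbx5 was at 76.6 ± 34 CPM in the Nrf2-/- controls and 58.8 ± 18 CPM with ethanol. Piwil2 was at 27.6 ± 20 and 21.7 ± 11 CPM in the same order, and both genes overlapped between the groups. The liver KO direction depends on the scaling: these sums are per total of all counts, a scaling that moves the median log2 fold change of all features to -0.28, while under TMM the list's median was 0.06, with 9 of 14 genes above 0, and that of all features 0.01. In the Nrf2-/- comparison the same scaling moves the median of all features to -0.53. Under TMM the list's median there was -0.37, with 10 of 14 genes below 0, against -0.27 for all features. Among single features under TMM, 2.44% were lower without overlap in Nrf2-/- sperm and 3.88% in liver KO. The members' share of repeat counts overlapped in both comparisons.

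Other repeats followed the summed members closely across libraries. As deviations from table means of log2 CPM over the 28 libraries, the 5 names with the highest Pearson correlation among 1875 repeat names and strands outside the rule were RMER17A2 sense (0.984), RLTR14-int antisense (0.979), ORR1E antisense (0.975), RMER17A2 antisense (0.975) and MT2B1 sense (0.975). All are LTR retrotransposons of the ERVK, ERV1 or ERVL groups, and the points share library and depth, so these values are a description.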

How the data were processed

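Small RNA libraries of sperm were made with the Qiaseq kit, per the labels' protocols. The deposited files are 3 tables of raw counts per feature, made by the authors; no aligner, counter, genome build or treatment of reads that match several copies is named in the sources used here. Counts were summed per repeat name and strand. All features other than miRNA were filtered (filterByExpr), scaled by TMM and tested with edgeR 4.0.16 (quasi-likelihood, Benjamini-Hochberg adjustment, threshold 0.05) in R 4.3.3, with DESeq2 1.42.0 as an alternative; the script was checked on simulated data. Share and ratio were tested by exact permutation over libraries (scipy 1.17.1). By rule, the 10 most counted names, any member called and the 5 repeats most like the members were named; other names (members with an unadjusted p under 0.05 or without overlap, IAPEY3_LTR, IAPEy-int, Dnmt1) were chosen after their values were seen. WT medium and high dose were tested as 1 group of 4. Alternatives covered scaling, filter, groups fitted, replicate block, denominators, weighting of names, leading copies and leaving out each library. Replicate pairs differed beyond sampling noise. The members and lists were chosen with earlier results of these data known.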

Additional observations from a re-analysis of the deposited data

Results flagged for a closer look

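In 5 of the 156 groups examined, each a quantity in 1 group of 4 libraries, 1 library lay far from the other 3, by Dixon's criterion at the 95% level. Chance alone flags about 5% of groups. The MMERVK antisense to sense ratio was 1.52 in Nrf2 liver KO 4 and 1.99 to 2.01 in the other liver KO libraries. In the same library ETnERV-int antisense was 18.1 CPM, against 6.26 to 8.13 CPM. ETnERV-int sense was 27.8 CPM in Nrf2 liver KO 2 and 39.6 to 42.0 CPM in the others. MMERVK10C-int antisense was 251 CPM in WT low dose 2, against 188 to 196 CPM. IAPLTR2_Mm antisense was 124 CPM in Nrf2-/- ethanol 3, against 30.4 to 41.4 CPM.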

How the results depend on the processing

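No member was called under any alternative. As a share of all counts of the library instead of repeat counts, the difference from control turned to 0.00987 percentage points at medium and high dose, -0.0160 in Nrf2-/- and -0.00855 in liver KO; without the 5 leading copies, an alternative chosen after seeing the data, the medium and high dose difference was 0.000833. With the median over names, the log2 ratio difference was 0.33 at low dose and 0.38 in liver KO, now past the threshold, and turned to 0.25 at medium and high dose and -0.00829 in Nrf2-/-. Against the summed ratio of other repeats the difference was 0.0265 as a median over names, 0.12 without each leading copy and -0.10 without the 5 copies. Leaving out 1 library gave share differences of -0.0139 to 0.0453 (low dose), -0.0379 to 0.0213 (medium and high dose), 0.0363 to 0.194 (Nrf2-/-) and -0.0434 to 0.113 (liver KO), and log2 ratio differences of -0.0349 to 0.0501, -0.120 to -0.0346, -0.0265 to 0.124 and 0.00841 to 0.0867. Same-numbered replicates had correlations of -0.49 to 0.42, so the numbers do not pair the libraries; with the replicate block the share differences were 0.0184, -0.0472, 0.119 and 0.0624 and the ratio differences 0.0109, -0.0178, 0.0477 and 0.0555, with 0 members called. Over all features at low dose, 11 were called by edgeR, 44 by DESeq2, 160 with no filter and 42 with the block; in Nrf2-/-, 0 by edgeR and 13 by DESeq2; in liver KO, 5 by edgeR, 62 by DESeq2 and 208 by edgeR without liver KO 3. The cause was not tested.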

Other observations

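The level of the members followed that of the piRNA clusters, genomic regions that give rise to long runs of piRNAs. Over the 28 libraries, as deviations of log2 level from the group means, members antisense correlated with piRNA cluster counts at r = 0.987 (Pearson) and rho = 0.948 (Spearman), and members sense at r = 0.939 and rho = 0.869. Each of these 2 relations had p = 1e-05 in a permutation test, the smallest it can give, and an adjusted p of 1e-05. Without WT control 1 and Nrf2-/- control 2, the libraries farthest from the median, r was 0.977 and 0.881 (n = 26). Within the WT, Nrf2-/- and flox and liver KO tables r was 0.996, 0.992 and 0.873 for antisense and 0.983, 0.976 and 0.792 for sense. Both measures share library and depth, so these p-values do not show a relation particular to piRNA clusters. The closest repeat outside the rule, RMER17A2 sense, followed the summed members at r = 0.984, as deviations from table means. Whether members and piRNA clusters count the same reads was not tested.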
